A study of Mus musculus with 2 samples.

Results

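Wnt ligands, their Frizzled receptors and the secreted proteins that modulate them were followed across the cell classes of the neonatal mouse cerebellum. The genes were taken by symbol from the deposited gene list and numbered 41 of 32285: 19 Wnt ligands, 10 Frizzled receptors, 4 secreted Frizzled-related proteins (Sfrp), 4 Dickkopf proteins (Dkk) and 4 R-spondins (Rspo). Nuclei were isolated from frozen cerebella at postnatal day 1 and sequenced in 2 libraries, each a pool of 12 cerebella. The control library came from littermates without Cre, labelled Tox3f/f, with a library name that also allows Tox3f/+, and the library labelled cKO, called the cKO-labelled library, came from Nestin-cre;Tox3f/f mice. Nestin-Cre is active in neural precursors and is inherited by the neurons and glia they form, whereas microglia and blood vessels lie outside that lineage. All animals carried at least 1 floxed Tox3 allele.

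Wnt proteins are secreted, lipid-modified ligands. On the receiving cell they bind a Frizzled together with the co-receptors Lrp5 or Lrp6, which stabilises β-catenin and turns on target genes through TCF/LEF factors, or they signal through other co-receptors to cell polarity and movement. Sfrp proteins carry a Frizzled-like domain and bind Wnt ligands outside the cell, most Dickkopf proteins occupy the Lrp co-receptors, and R-spondins bind Lgr receptors and so keep more Frizzled at the surface. In the hindbrain Wnt1 is known for its place in the isthmic organiser, from which the cerebellum is patterned, and granule neuron progenitors (GNPs) divide in the external granule layer after birth before they become granule neurons (GN-like in the names of classes).

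After filtering, 4667 control nuclei with 20546345 UMIs (unique molecular identifiers, each standing for 1 captured transcript) and 6555 nuclei of the cKO-labelled library with 30147400 UMIs were compared. Levels are given as UMIs of a gene per 1000000 UMIs of all genes (CPM). The libraries shared 9 cell barcodes. Low-depth droplets formed a cluster of their own in each library, with 21.2% of control nuclei in cluster 1 and 10.2% of nuclei of the cKO-labelled library in cluster 5. Tox3 itself was not lower in the cKO-labelled library, with 2146 and 3575 UMIs (104 and 119 CPM), and since UMIs are not resolved along the transcript they do not check the genotype. The library is therefore named by its label. GNP-like nuclei numbered 515 (11.0%) in control and 114 (1.74%) in the cKO-labelled library, and GN-like nuclei 1520 (32.6%) and 1901 (29.0%). Each group was 1 library, so no difference has a replicate check and none was tested. Intervals are exact 95% intervals and cover counting error only. Fewer nuclei of a class and less RNA per nucleus cannot be told apart in a whole-library value. A gene is called lower or higher in the cKO-labelled library where it had at least 20 UMIs over both libraries, the ratio of CPM was at least 1.5-fold from 1, and its interval left out 1.

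Of the 41 genes, 31 reached 20 UMIs over both libraries, and together the 41 held 6578 UMIs in control and 8312 in the cKO-labelled library. The 10 below that sum were Wnt3a, Wnt6, Wnt8a, Wnt8b, Wnt10a, Wnt10b, Wnt11, Sfrp5, Dkk1 and Rspo4. Wnt8a had no UMI in either library, and Sfrp5 had 0 in control and 2 in the cKO-labelled library. At the depth of the whole control library a count of 0 allows up to 0.146 CPM. All 10 Frizzled genes were among the 31.

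The gene with the most UMIs was Fzd3, a receptor required for axon guidance and planar polarity in the brain. It had 2198 UMIs in control (107 CPM, 103 to 112) and 2581 in the cKO-labelled library (85.6 CPM, 82.3 to 89). Levels of different genes were set side by side only per kb. Per kb of annotated exon, Fzd3 led the control library with 8.36 CPM per kb, followed by Wnt5b with 6.52, Sfrp1 with 6.2, Wnt2b with 5.50 and Fzd2 with 4.59. Per kb of the whole gene, Fzd2 was first with 4.59 CPM per kb, Fzd1 had 3.19 and Fzd3 1.53. The 2 scales gave different orders. Fzd1, Fzd2, Fzd7, Fzd8, Fzd9 and Fzd10, 6 of the genes, are annotated with 1 exon each, whereas Fzd3 spans 70.0 kb of chromosome 14 with 12.8 kb of exon.

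**Figure D1:**
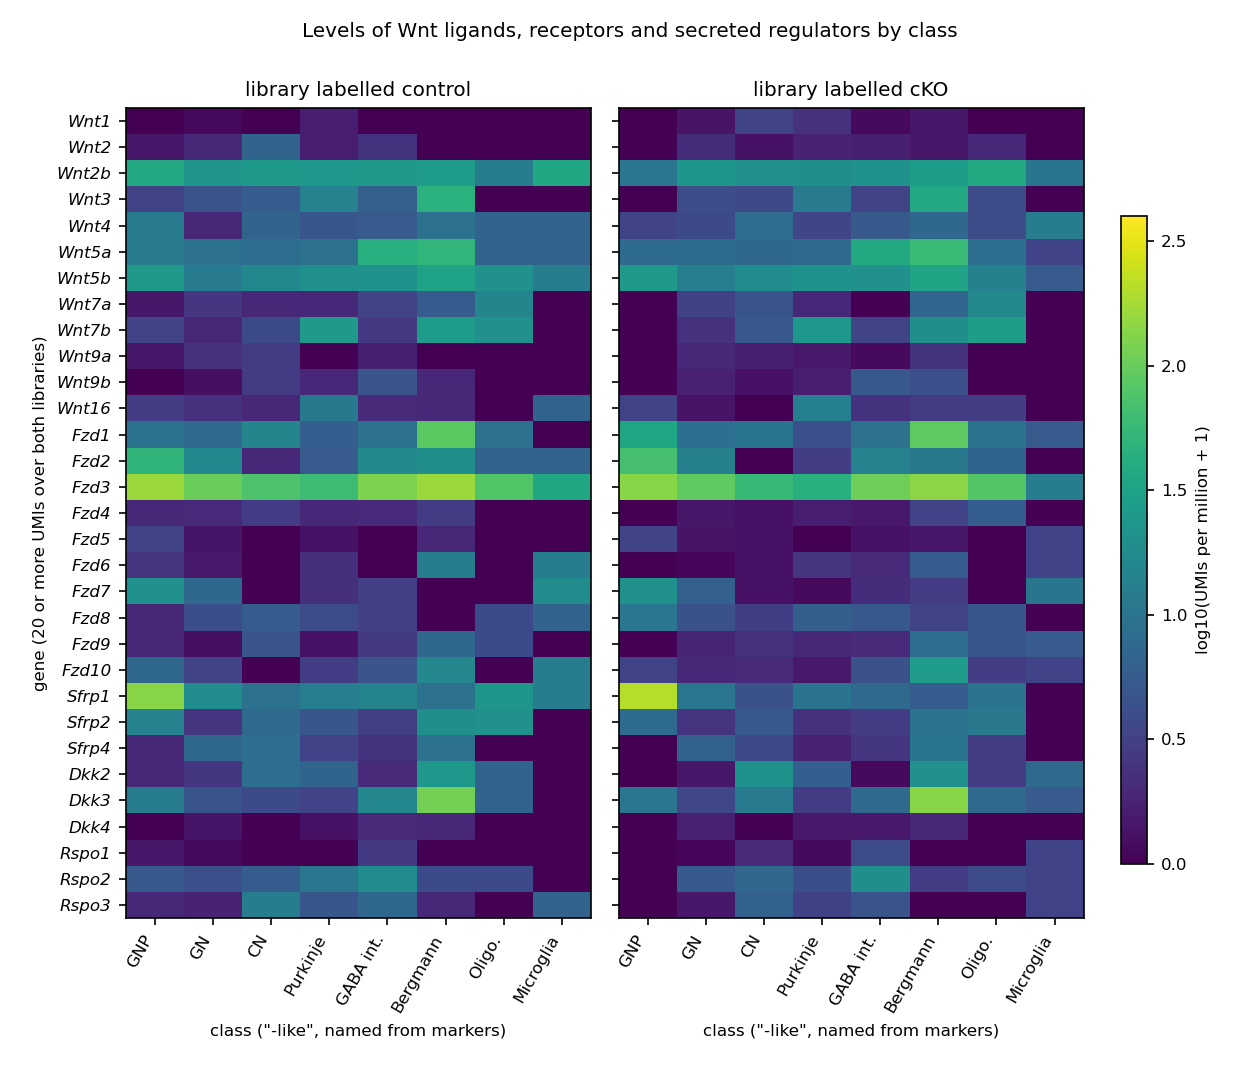
Level of the 31 genes with at least 20 UMIs (rows) in 8 classes (columns) of each library, as log10 of CPM plus 1, with the scale at the right. Sfrp1 in GNP-like nuclei (136 CPM in control) and Dkk3 in Bergmann glia-like nuclei (113 CPM) stood out from their rows, Fzd3 was present in all 8 classes, and Wnt2b ran from 11.3 to 36.5 CPM over the control columns.

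Where the genes were expressed was read from the control library first. Only named classes with at least 20 control nuclei were ranked, and unnamed clusters were not. Among the unnamed ones was cluster 11, where Bergmann glia markers summed to 5830 CPM in control. A gene was counted as class-restricted when its highest class, with at least 20 UMIs, lay 5-fold or more above the median of the other classes, and 11 genes met this, of which 10 are described by class. GNP-like nuclei led for Sfrp1, Fzd2 and Fzd7, Bergmann glia-like nuclei for Wnt3, Wnt5a, Wnt7b, Fzd1, Dkk2 and Dkk3, and Purkinje cell-like nuclei for Wnt16. With classes gated directly on markers instead of clusters, 8 of the 11 kept the same class. By the share of nuclei with a UMI after thinning each nucleus to 1000 UMIs, 9 of the 11 kept it. Wnt16 then no longer met the rule, and Wnt7b was led by Purkinje cell-like nuclei.

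Among the ligands, Wnt16 was carried by Purkinje cell-like nuclei, the output neurons of the cerebellar cortex. They held 31 of its 52 control UMIs (59.6%) at 10.2 CPM (6.95 to 14.5), and 74 of 96 UMIs at 12.3 CPM (9.69 to 15.5) in the cKO-labelled library. The level elsewhere had a median of 0.999 CPM. The 2 Purkinje cell-like clusters went in opposite directions, a difference that was not tested. Cluster 10 went from 10.1 to 20 CPM (13 and 55 UMIs, ratio 1.97, 1.06 to 3.94) and cluster 6 from 10.3 to 5.85 CPM (18 and 19 UMIs, ratio 0.569, 0.283 to 1.15). Over both clusters the ratio was 1.21 (0.784 to 1.90).

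Wnt7b, a ligand that acts on brain blood vessels and on dendrite growth, was shared by 3 classes. In control it reached 25.5 CPM in Bergmann glia-like, 24.7 in Purkinje cell-like and 19.8 in oligodendrocyte lineage-like nuclei, values whose intervals overlap, and 0.934 CPM in GN-like nuclei. In the cKO-labelled library the same 3 classes had 18.7, 23.2 and 27.7 CPM. An unnamed cluster, cluster 11, whose leading genes included Glis3, Plpp3, Tnc and Apoe and which carried astrocyte markers such as Aqp4 and Slc6a11, had more, with 69.8 CPM (31 UMIs) in control and 47.7 CPM (53 UMIs) in the cKO-labelled library. That cluster also led Wnt7a among the clusters with at least 15 UMIs of it, at 15.8 and 26.1 CPM (7 and 29 UMIs).

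Wnt5a, which signals mainly through Ror receptors to cell movement and polarity, was highest in Bergmann glia-like nuclei (50.1 CPM, 37.5 to 65.6) and then in GABAergic interneuron-like nuclei (42.4 CPM, 35.2 to 50.6), 2 values that overlap. The cKO-labelled library had 56.5 and 36.8 CPM there. The interneuron-like clusters were unequal, with 87.2 CPM in cluster 18 and 66.8 CPM in cluster 12 but 18.8 CPM in cluster 9. Cluster 18 also had the highest sum of GABAergic progenitor markers of all clusters, 239 CPM in control and 256 CPM in the cKO-labelled library. The fibroblast and mural-like cluster had 221 CPM (95.3 to 435) in control and 157 CPM in the cKO-labelled library, from 9 and 13 nuclei with 8 and 9 UMIs. Wnt3, a ligand of the β-catenin pathway, was highest among the named classes in Bergmann glia-like nuclei in both libraries (44.5 and 36.4 CPM). Purkinje cell-like nuclei were next in control (13.2 CPM).

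Wnt1 had 18 UMIs in control and 32 in the cKO-labelled library, a ratio of 1.21 (0.660 to 2.29).

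Wnt2b and Wnt5b did not reach the 5-fold rule and were present in every class down to microglia-like nuclei. Wnt2b ranged from 11.3 CPM in oligodendrocyte lineage-like to 36.5 CPM in GNP-like nuclei of control, and microglia-like nuclei, which lie outside the neural lineage, had 34.7 CPM (12.7 to 75.6, 6 UMIs). Wnt5b ranged from 11.2 CPM in GN-like to 30.3 CPM in Bergmann glia-like nuclei, with 11.6 CPM (2 UMIs) in microglia-like nuclei. Wnt2b overlaps Gm43846 on the same strand, and Wnt5b overlaps Fbxl14 on the other strand. Wnt2b had UMIs in 9.43% of microglia-like nuclei of control at a median depth of 2923 UMIs, against 12.0% of GNP-like nuclei at 3721 UMIs and 19.1% of Purkinje cell-like nuclei at 9299 UMIs. The share in GNP-like nuclei was close to that in microglia-like nuclei, which rests on 6 UMIs and a lower depth. Whether these UMIs came from other cells was not tested.

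**Figure D2:**
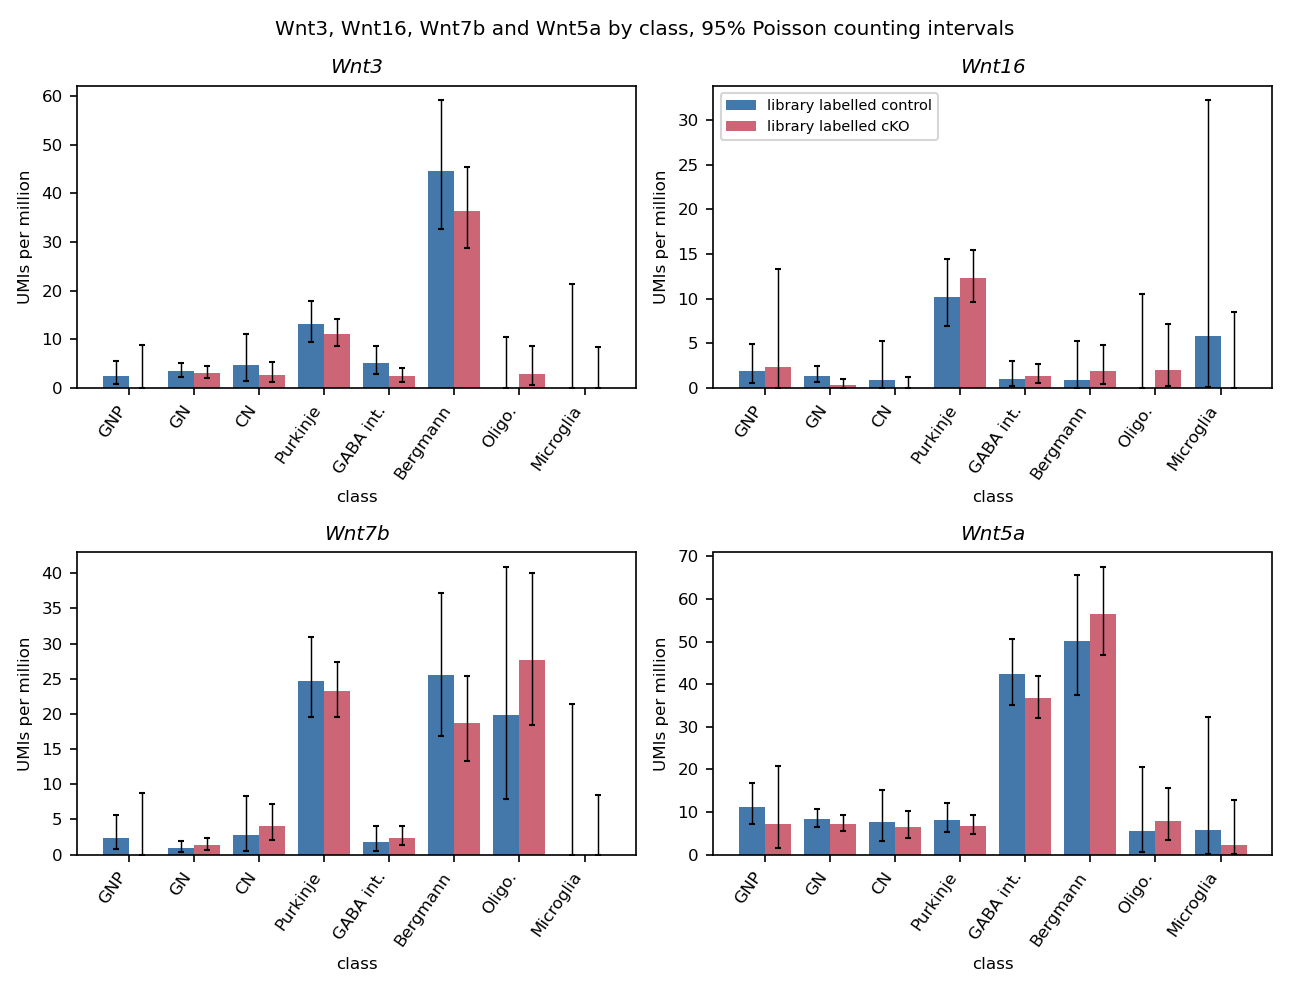
Level in CPM (vertical axes, from 0) of Wnt3, Wnt16, Wnt7b and Wnt5a in 8 classes, with control in blue, the cKO-labelled library in red and 95% Poisson intervals as bars. Wnt3 was highest in Bergmann glia-like nuclei (44.5 and 36.4 CPM) and Wnt16 in Purkinje cell-like nuclei, whereas Wnt7b and Wnt5a each had more than 1 high class.

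Among the R-spondins, Rspo2 (chr15:43020794-43170826, minus strand) had 392 UMIs in control (19.1 CPM) and 415 in the cKO-labelled library (13.8 CPM), a ratio of 0.722 (0.627 to 0.830). Rspo3 had 11.5 CPM in glutamatergic cerebellar nuclei (CN)-like and 6.61 CPM in GABAergic interneuron-like nuclei of control, and Rspo1 had 7 and 23 UMIs in all.

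Among the receptors, Fzd3 was present throughout, from 159 CPM in GNP-like and in Bergmann glia-like nuclei of control to 34.7 CPM in microglia-like nuclei. Fzd1 was highest among the named classes in Bergmann glia-like nuclei, the radial glia along which granule neurons migrate. It had 86.1 CPM (69.3 to 106) in control and 89.2 CPM (77.0 to 103) in the cKO-labelled library. The control value was 10.2-fold above the median of the other control classes. Fzd2 and Fzd7 had their highest level in GNP-like nuclei, but GN-like nuclei held more of their control UMIs, 33.3% against 29.3% for Fzd2 and 40.8% against 34.2% for Fzd7. Fzd7 had 17.4 CPM (3.58 to 50.7, 3 UMIs) in microglia-like nuclei of control against 19.9 CPM in GNP-like nuclei, and it did not meet the 5-fold rule under the direct gate. Fzd10 was highest of all clusters in the unnamed astrocyte-marker cluster 11, with 42.8 and 50.4 CPM, and Fzd9 had 11.3 and 23.4 CPM there (5 and 26 UMIs).

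Among the secreted inhibitors, Dkk3, a divergent Dickkopf whose action on Wnt signalling is debated, was highest of the ranked classes in Bergmann glia-like nuclei. Of its control UMIs 42.8% lay there. It had 113 CPM (93.2 to 135) in control and 136 CPM (121 to 153) in the cKO-labelled library, a ratio of 1.21 (0.976 to 1.51). It was present in 34.5% and 37.7% of those nuclei, against 0 of 53 and 1.32% of microglia-like nuclei. Dkk2, which binds the Lrp co-receptors, had 23.6 and 19.6 CPM in the same class. Sfrp1 was a GNP gene, with 136 CPM (121 to 153) in GNP-like nuclei of control against a median of 11.7 CPM elsewhere, and GNP-like nuclei held 50.4% of its control UMIs. It was present in 36.5% of GNP-like nuclei of control at a median depth of 3721 UMIs and in 3.77% of microglia-like nuclei at 2923 UMIs.

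Over the whole libraries, 4 of the 31 genes were lower in the cKO-labelled library and 1 was higher, where 5.51% of all 20213 genes compared were lower and 4.57% were higher. The 4 were the inhibitors Sfrp1 and Sfrp2 and the receptors Fzd2 and Fzd7, and the gene called higher was Fzd9. The median log2 ratio of the 31 genes was 0.02 and that of all genes -0.02, with 15 of the 31 below a ratio of 1 and 16 above it.

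Sfrp1 (chr8:23411502-23449632, plus strand, GRCm38) differed most. It had 556 UMIs in control (27.1 CPM, 24.9 to 29.4) and 313 in the cKO-labelled library (10.4 CPM, 9.26 to 11.6), a ratio of 0.384 (0.333 to 0.441). Fzd7 (chr1:59482424-59486955, plus strand) had 120 and 76 UMIs (5.84 and 2.52 CPM, ratio 0.432, 0.319 to 0.580). Fzd2 (chr11:102604396-102608058, plus strand) had 345 and 285 UMIs (16.8 and 9.45 CPM, ratio 0.563, 0.480 to 0.661). The intervals of the 2 libraries did not overlap for any of these 3 genes.

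Sfrp2 (chr3:83766321-83774316, plus strand), whose product also binds Wnt ligands, had 101 and 91 UMIs (4.92 and 3.02 CPM, ratio 0.614, 0.457 to 0.823). Fzd9 had 31 and 73 UMIs (1.51 and 2.42 CPM, ratio 1.60, 1.04 to 2.53), of which 5 and 26 lay in cluster 11, a cluster that made up 2.19% of control nuclei and 4.74% of those labelled cKO. Fzd3 was lower by less than the fold, with a ratio of 0.80 (0.756 to 0.848). Without the low-depth clusters 1 and 5 the counts were again 4 lower and 1 higher.

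None of the 12 ligands compared was called over the whole libraries, beside 5.51% of all genes lower and 4.57% higher. Wnt5a had 351 and 580 UMIs (ratio 1.13, 0.985 to 1.29), Wnt5b 356 and 530 (ratio 1.01, 0.885 to 1.16), Wnt2b 475 and 647 (ratio 0.928, 0.823 to 1.05) and Wnt3 165 and 233 (ratio 0.962, 0.785 to 1.18). Wnt7a, with 48 and 104 UMIs, had an interval that left out 1 but did not reach the fold (ratio 1.48, 1.04 to 2.12). Wnt2, Wnt9a and Wnt9b had between 20 and 50 UMIs in each library, with ratios of 0.746, 0.784 and 1.48 and intervals that held 1.

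Among the remaining receptors and inhibitors, Fzd8 had 60 and 113 UMIs (ratio 1.28, 0.930 to 1.79) and Fzd10 97 and 162 (ratio 1.14, 0.880 to 1.48). Fzd4, Fzd5 and Fzd6 had no more than 39 UMIs in a library and ratios of 0.805, 0.558 and 0.857 with intervals that held 1. Sfrp4 had 86 and 97 UMIs (ratio 0.769, 0.569 to 1.04), Dkk2 81 and 155 (ratio 1.30, 0.991 to 1.73) and Dkk4 9 and 15. Dkk3 had 278 and 494 UMIs, with a ratio of 1.21 (1.04 to 1.41) that did not reach the fold.

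The share of GNP-like nuclei, 11.0% and 1.74%, differed alongside these whole-library values. The 10 GNP markers, all present in the files, summed to 756 CPM in control and 403 CPM in the cKO-labelled library, while within GNP-like nuclei they summed to 3405 and 3272 CPM. When each class was weighted by its control share of UMIs in both libraries, the ratio of Sfrp1 came to 1.03, that of Fzd2 to 0.910 and that of Fzd7 to 0.770. Sfrp2 stayed at 0.628, and Fzd9 came to 1.40. At these shares 2 of the 31 genes were 1.5-fold or more lower, Sfrp2 and Rspo3 (0.558), and 1 was higher, Rspo1 (1.62, from 7 and 23 UMIs). These ratios were counted without an interval, and the same count over all genes was not made. All unnamed clusters were weighted together, so the share of cluster 11 among them was not held. That cluster, where part of the Fzd9 UMIs lay, had 443903 UMIs of all genes in control and 1111790 in the cKO-labelled library. Weighted by the shares of the cKO-labelled library instead, Sfrp1 came to 0.651 and Fzd2 to 0.743.

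**Figure D3:**
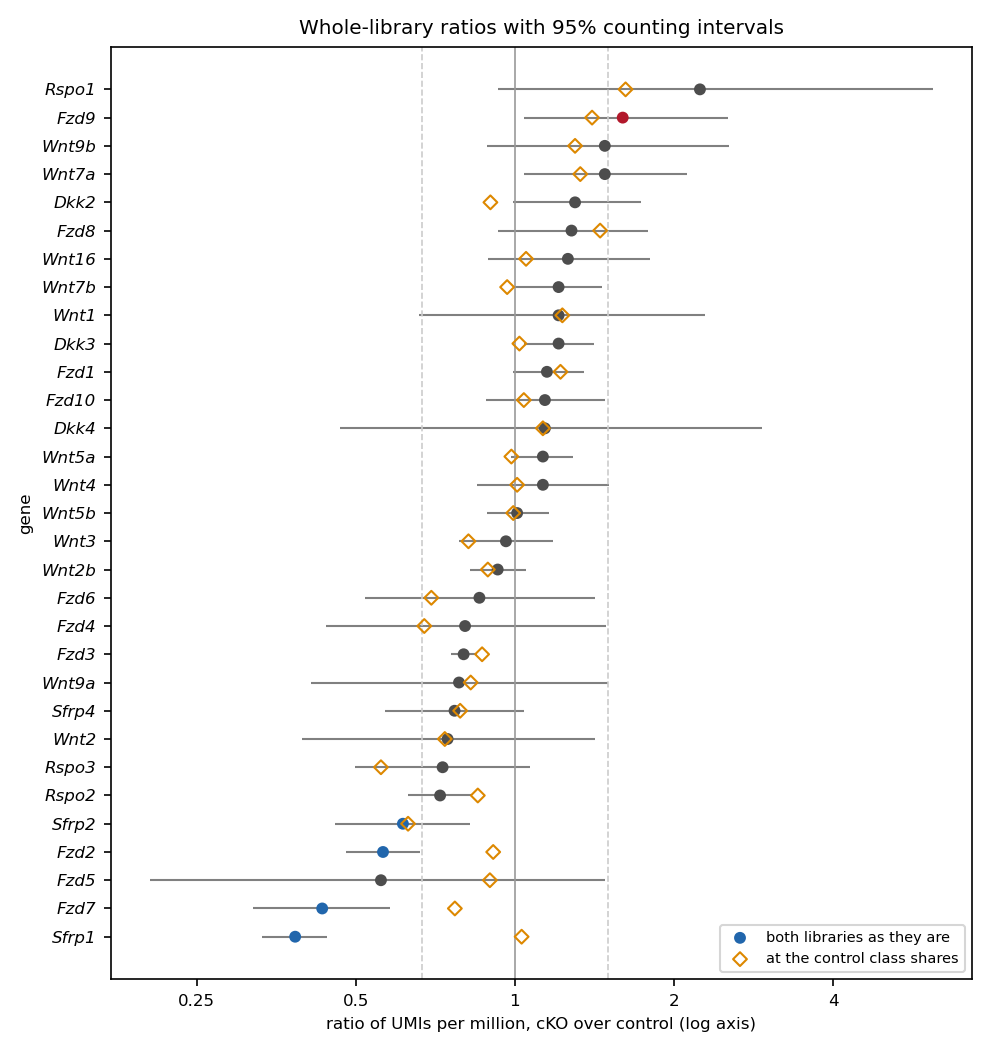
Ratio of CPM, cKO over control, on a log axis for the 31 genes with at least 20 UMIs (rows), with 95% counting intervals. Filled points are the libraries as they are (blue for the 4 genes called lower, red for Fzd9). Open diamonds hold the named classes at their control shares, with the unnamed clusters weighted together. Dashed lines mark 1.5-fold either way, and the diamonds of Sfrp1, Fzd2 and Fzd7 lie nearer to 1 than their points, at 1.03, 0.910 and 0.770.

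Within the granule lineage, GNP-like and GN-like nuclei together, 18 of the genes could be compared and 5 were lower in the cKO-labelled library, Sfrp1, Sfrp2, Fzd7, Fzd10 and Dkk3, with none higher. Of all 16342 genes compared there, 10.0% were lower and 3.62% higher. The median log2 ratio was -0.18 for the 18 genes and -0.09 for all genes.

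Sfrp1 had 411 UMIs in control (43.0 CPM, 39.0 to 47.4) and 165 in the cKO-labelled library (19.0 CPM, 16.2 to 22.1), a ratio of 0.442 (0.366 to 0.530), which with doublets kept was 0.684 (0.562 to 0.829) and short of the fold. Sfrp2 had 38 and 15 UMIs (ratio 0.434, 0.222 to 0.808), and Fzd10 had 31 and 9 UMIs (ratio 0.319, 0.134 to 0.687). Fzd7 had 90 and 51 UMIs (ratio 0.623, 0.433 to 0.888) and Dkk3 52 and 25 UMIs (ratio 0.529, 0.314 to 0.868). Fzd2 fell just short of the fold, with 216 and 131 UMIs (22.6 and 15.1 CPM, ratio 0.667, 0.533 to 0.833). With nuclei gated directly on markers, the ratios of Fzd7, Fzd10 and Dkk3 were 0.798, 0.633 and 0.736 with intervals that held 1.

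GNP-like nuclei made up a smaller share of the lineage in the cKO-labelled library, so its clusters were read separately. Sfrp1 went down step by step from GNP-like to GN-like clusters in control, from 148 CPM in cluster 17 and 128 in cluster 14 to 57.3 in cluster 8, 22.5 in cluster 4, 10.9 in cluster 3 and 9.03 in cluster 0. In the cKO-labelled library the same clusters had 274, 176, 46.9, 18.0, 2.16 and 3.96 CPM. The cKO-labelled library was thus higher in both GNP-like clusters and lower in all 4 GN-like clusters. The interval of the ratio left out 1 in cluster 17 (1.85, 1.22 to 2.72), cluster 3 (0.199, 0.0488 to 0.611) and cluster 0 (0.439, 0.229 to 0.811).

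Over GNP-like nuclei as a whole, Sfrp1 had 280 UMIs in 515 nuclei of control and 86 UMIs in 114 nuclei of the cKO-labelled library, 136 and 205 CPM (164 to 253), a ratio of 1.51 (1.17 to 1.93). The share of GNP-like nuclei with a UMI was 36.5% and 43.0%. With GNPs gated directly on markers the ratio was 0.955 (0.631 to 1.40), and Sfrp1 was then no longer higher. In GN-like nuclei Sfrp1 had 131 and 79 UMIs, 17.5 and 9.56 CPM, a ratio of 0.547 (0.408 to 0.729). That ratio fell short of the fold under the direct gate (0.735, 0.550 to 0.978), without integration (0.732) and with doublets kept (0.717). The GNP markers summed to 408 and 289 CPM in GN-like nuclei, and their part in this ratio was not tested.

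Fzd2 in control had 41 and 54.6 CPM in the GNP-like clusters 17 and 14 and 51.4 CPM in cluster 8, and no more than 14.1 CPM in clusters 4, 3 and 0. In the cKO-labelled library it had 96.7 CPM in cluster 17 (ratio 2.36, 1.11 to 4.66, 34 and 12 UMIs) and 54.2 CPM in cluster 14. Over GNP-like nuclei the levels were 49.1 CPM (40.0 to 59.7) and 66.8 CPM (44.4 to 96.6), which overlap. Fzd7 had 19.9 CPM (41 UMIs) and 19.1 CPM (8 UMIs) in GNP-like nuclei, with a ratio of 0.957 (0.388 to 2.07). Sfrp2 had 13.1 CPM (27 UMIs) and 7.16 CPM (3 UMIs) there, a ratio of 0.545 (0.106 to 1.77).

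**Figure D4:**
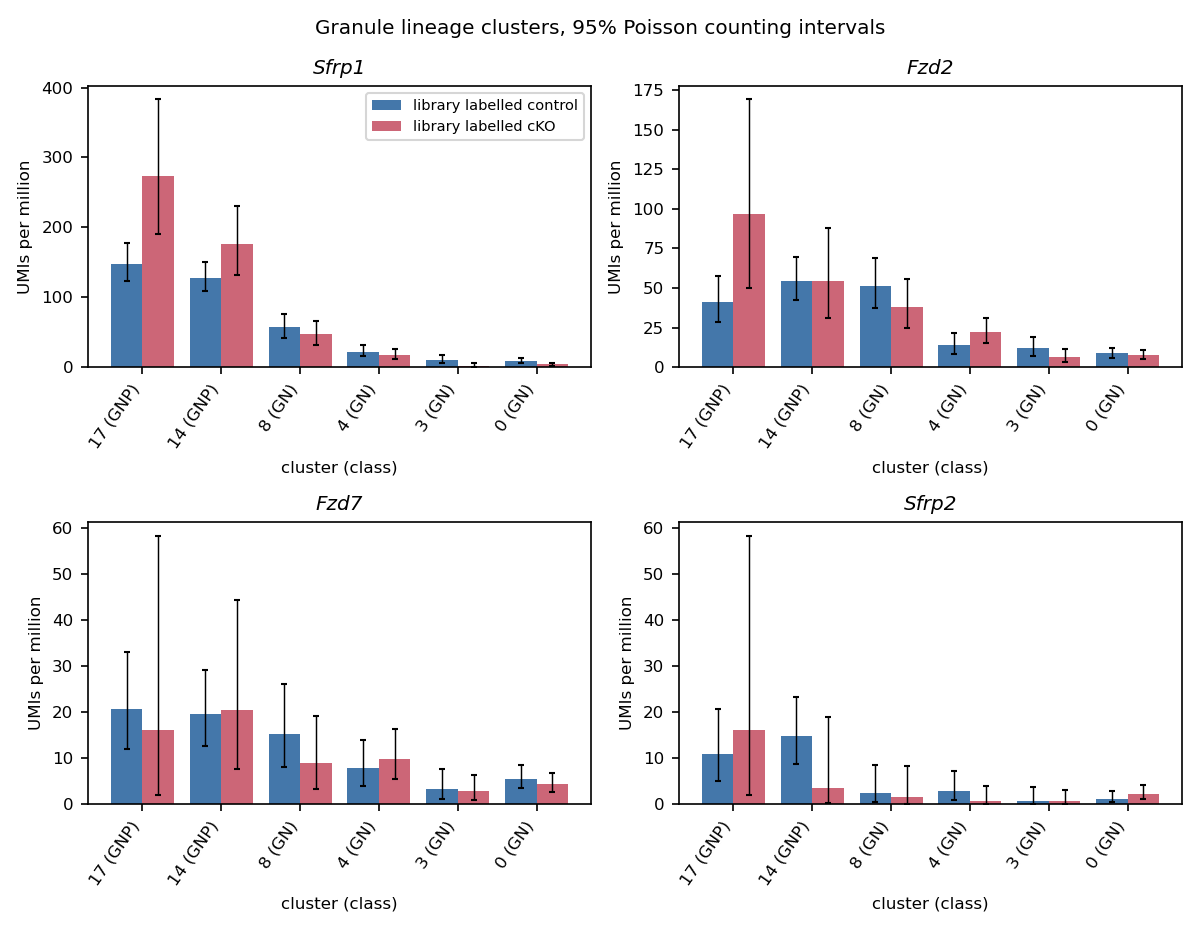
Level in CPM (vertical axes, from 0) of Sfrp1, Fzd2, Fzd7 and Sfrp2 in the 6 clusters of the granule lineage, ordered from the GNP-like clusters 17 and 14 to the GN-like clusters 8, 4, 3 and 0, with control in blue, the cKO-labelled library in red and 95% Poisson intervals. Sfrp1 and Fzd2 were higher in the cKO-labelled library in cluster 17, and Fzd7 and Sfrp2 had wide overlapping intervals in the GNP-like clusters.

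The promoters of the genes lower in the granule lineage are shown as RefSeq sequence (assembly GRCm38.p6), because these genes were called lower in the same nuclei and motifs of TCF/LEF factors and of basic helix-loop-helix factors could be looked for in them. Each follows the RefSeq start of the gene and runs from 250 bases before to 50 bases after the annotated start, and capitals mark a match to 1 of the 3 motifs searched on both strands, the TCF/LEF core CTTTGAT and the E-boxes CAGCTG and CAGATG.
Fzd7 promoter, chr1:59481897-59482196, plus strand: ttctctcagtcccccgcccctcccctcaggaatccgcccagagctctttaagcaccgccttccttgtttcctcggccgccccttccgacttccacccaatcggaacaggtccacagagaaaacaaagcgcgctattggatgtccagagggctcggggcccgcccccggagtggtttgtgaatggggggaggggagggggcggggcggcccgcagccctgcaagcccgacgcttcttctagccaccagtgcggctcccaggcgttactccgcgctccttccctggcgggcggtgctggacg
Sfrp2 promoter, chr3:83766071-83766370, plus strand: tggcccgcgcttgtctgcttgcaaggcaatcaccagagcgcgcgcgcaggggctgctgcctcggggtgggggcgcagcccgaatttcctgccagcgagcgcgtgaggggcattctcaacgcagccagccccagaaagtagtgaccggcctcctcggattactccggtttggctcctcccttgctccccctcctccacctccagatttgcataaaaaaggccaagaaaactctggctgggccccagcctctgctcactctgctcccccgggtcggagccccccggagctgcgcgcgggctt
Fzd10 promoter, chr5:128600856-128601155, plus strand: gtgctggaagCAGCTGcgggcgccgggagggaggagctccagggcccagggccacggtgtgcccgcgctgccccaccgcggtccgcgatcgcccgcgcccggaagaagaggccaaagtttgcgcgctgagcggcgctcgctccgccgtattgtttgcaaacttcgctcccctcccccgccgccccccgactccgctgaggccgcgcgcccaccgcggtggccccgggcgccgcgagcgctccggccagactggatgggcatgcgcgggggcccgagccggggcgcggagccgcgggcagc
Fzd10 holds 1 CAGCTG, which starts 240 bases before the RefSeq start, and Fzd7 and Sfrp2 hold none of the 3 motifs in these windows. GENCODE starts Fzd10 at 128600844, so that this match lies inside its gene model, and starts Fzd7 at 59482424, beyond the end of the window shown. Among all 32851 promoters listed, 3.73% hold CTTTGAT, 16.3% CAGCTG and 17.2% CAGATG. The other genes lower in the lineage were Sfrp1 and Dkk3, for which no promoter is shown.

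Beside Sfrp1, the genes Wnt2b, Fzd1, Fzd10 and Wnt4 were called within GNP-like or GN-like nuclei, where 7.64% and 3.77% of all genes compared were lower and 6.09% and 2.75% were higher. With Sfrp1 counted, 1 of 11 family genes compared in GNP-like nuclei was lower and 2 were higher. In GN-like nuclei 2 of 17 were lower and 1 was higher. Wnt2b had 75 UMIs in GNP-like nuclei of control (36.5 CPM, 28.7 to 45.7) and 4 in the cKO-labelled library (9.55 CPM, 2.6 to 24.4), a ratio of 0.262 (0.0695 to 0.698). Microglia-like nuclei, outside the neural lineage, had 34.7 and 9.19 CPM (6 and 4 UMIs). Their ratio was 0.265 with an interval that held 1 (0.0549 to 1.12), and a shared source was not tested. The Wnt2b level in GN-like nuclei was 21.9 and 23.0 CPM (ratio 1.05, 0.848 to 1.30). With GNPs gated directly the ratio was 0.571 and its interval held 1 (0.178 to 1.42).

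Fzd10 had 18 and 8 UMIs in GN-like nuclei, with a ratio of 0.403 (0.152 to 0.974), whose interval left out 1 in 4 of 14 alternatives. Without cluster 3 it was 0.588 (0.193 to 1.66). Fzd1 had 18 UMIs in GNP-like nuclei of control and 14 in the cKO-labelled library, 8.76 and 33.4 CPM, a ratio of 3.82 (1.76 to 8.12). Bergmann glia markers, which mark the class where Fzd1 is highest, summed to 469 and 625 CPM in GNP-like nuclei against 10267 and 9956 CPM in Bergmann glia-like nuclei, and their part in this ratio was not tested. Wnt4, a ligand known from kidney and gonad formation, had 7 and 23 UMIs in GN-like nuclei (0.934 and 2.78 CPM, ratio 2.98, 1.24 to 8.22), against 23 and 1 UMIs in GNP-like nuclei (ratio 0.213, 0.00518 to 1.31).

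Outside the granule lineage, over all other named classes, 29 genes could be compared and 5 were lower, Sfrp1, Sfrp2, Fzd2, Rspo2 and Rspo3, with none higher, where 2.53% of all 18701 genes compared were lower and 2.13% higher. The median log2 ratio was -0.12 for the 29 genes and -0.00 for all genes. Sfrp1 had 107 and 126 UMIs (11.4 and 6.59 CPM, ratio 0.577, 0.442 to 0.753), and Sfrp2 53 and 62 UMIs (5.66 and 3.24 CPM, ratio 0.573, 0.391 to 0.843). Fzd2 had 92 and 121 UMIs (ratio 0.644, 0.487 to 0.854). It was 0.703 to 0.728 under finer clusters, without integration and under the direct gate, short of the fold. GNP markers summed to 386 and 284 CPM in Purkinje cell-like and 137 and 88.7 CPM in glutamatergic CN-like nuclei. They summed to 1199 and 1185 CPM in Bergmann glia-like and 497 and 611 CPM in fibroblast and mural-like nuclei. Free RNA was not removed and the mix of the pooled classes differed, and their part in these ratios was not tested.

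Rspo2 had 345 and 367 UMIs outside the granule lineage (36.8 and 19.2 CPM, ratio 0.521, 0.449 to 0.605). The named classes outside the lineage made up 31.3% and 52.3% of all nuclei. When each class was weighted by its control share, the whole-library ratio of Rspo2 came to 0.851. Rspo3, an R-spondin with 45 and 54 UMIs (4.80 and 2.82 CPM, ratio 0.588, 0.388 to 0.893), had the lower value in each of the 3 neuronal classes that held most of it, 11.5 and 5.48 CPM in glutamatergic CN-like, 6.61 and 3.62 in GABAergic interneuron-like and 3.96 and 2.17 in Purkinje cell-like nuclei, each with an interval of the ratio that held 1. Its UMIs lay in few nuclei, 8 and 12 of the interneuron-like ones, with up to 8 in 1 nucleus. Restricted to nuclei that held Xist, the Rspo3 ratio was 0.401 (0.247 to 0.651), and in those with a Y-linked and no Xist UMI it was 1.83 (0.720 to 5.21).

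Calls were also read within single classes outside the lineage. Of 16 genes compared in each, 2 were lower in Purkinje cell-like, 2 in GABAergic interneuron-like and 1 in Bergmann glia-like nuclei, with none higher. Of 11 compared in glutamatergic CN-like nuclei 2 were higher, and of 5 in oligodendrocyte lineage-like nuclei 1 was higher, with none lower. In Purkinje cell-like nuclei, where 4.45% of genes were lower and 1.46% higher, Sfrp2 had 12 and 8 UMIs (3.96 and 1.33 CPM, ratio 0.337, 0.120 to 0.897). Rspo2 had 29 and 19 UMIs there (9.57 and 3.17 CPM, ratio 0.331, 0.176 to 0.611), but 1 nucleus of control held 19 of its 29 UMIs. Without the richest nucleus of each library the ratio was 0.807 (0.345 to 1.99), and the share of nuclei with a UMI was 2.01% and 2.37%.

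In Bergmann glia-like nuclei (2.94% lower, 3.16% higher) Sfrp2 had 20 and 19 UMIs, 18.9 and 8.87 CPM, a ratio of 0.469 (0.237 to 0.926). Without the richest nucleus of each library its interval held 1 (0.558, 0.262 to 1.2). Sfrp2 was also lower in value in oligodendrocyte lineage-like nuclei, 19.8 and 9.90 CPM from 7 and 10 UMIs (ratio 0.499, 0.171 to 1.54), but not in GN-like nuclei, 1.47 and 1.45 CPM.

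In GABAergic interneuron-like nuclei (2.33% lower, 1.39% higher) Sfrp1 and Dkk3 were called lower. Sfrp1 had 39 UMIs in each library, 13.6 and 6.73 CPM, a ratio of 0.496 (0.310 to 0.794), and most of it lay in cluster 12, with 40.4 and 17.1 CPM (26 and 21 UMIs). Dkk3 had 43 and 40 UMIs, 15 and 6.90 CPM, a ratio of 0.462 (0.293 to 0.727). Most of it lay in cluster 18, with 69.3 and 32.7 CPM (27 and 21 UMIs), the cluster with the highest sum of GABAergic progenitor markers. The GNP markers summed to 342 and 273 CPM in interneuron-like nuclei and the Bergmann glia markers to 434 and 425 CPM, and their part in these ratios was not tested.

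In glutamatergic CN-like nuclei, a class named after projection neurons of the deep nuclei, Dkk2 and Dkk3 were called higher, where 3.48% of genes were lower and 3.06% higher. Dkk2 had 8 UMIs in control (7.64 CPM, 3.30 to 15.1) and 60 in the cKO-labelled library (20.6 CPM, 15.7 to 26.5), a ratio of 2.69 (1.28 to 6.52). These came from 5 of 107 and 17 of 348 nuclei, 4.67% and 4.89%, and the UMIs per such nucleus were 1.60 and 3.53, with up to 18 in 1 nucleus. With this class gated directly on markers, Dkk2 had 1 and 0 UMIs, so its call rests on the naming by clusters. Dkk3 had 3 and 32 UMIs (2.86 and 11.0 CPM, ratio 3.83, 1.2 to 19.5), in 3 and 24 nuclei.

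In oligodendrocyte lineage-like nuclei (3.95% lower, 3.90% higher) Wnt2b had 4 and 37 UMIs, 11.3 CPM (3.09 to 29.0) and 36.6 CPM (25.8 to 50.5), a ratio of 3.23 (1.16 to 12.5). No gene of the family was called in microglia-like nuclei (3.32% lower, 3.22% higher), where none of the 41 reached 20 UMIs.

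**Figure D5:**
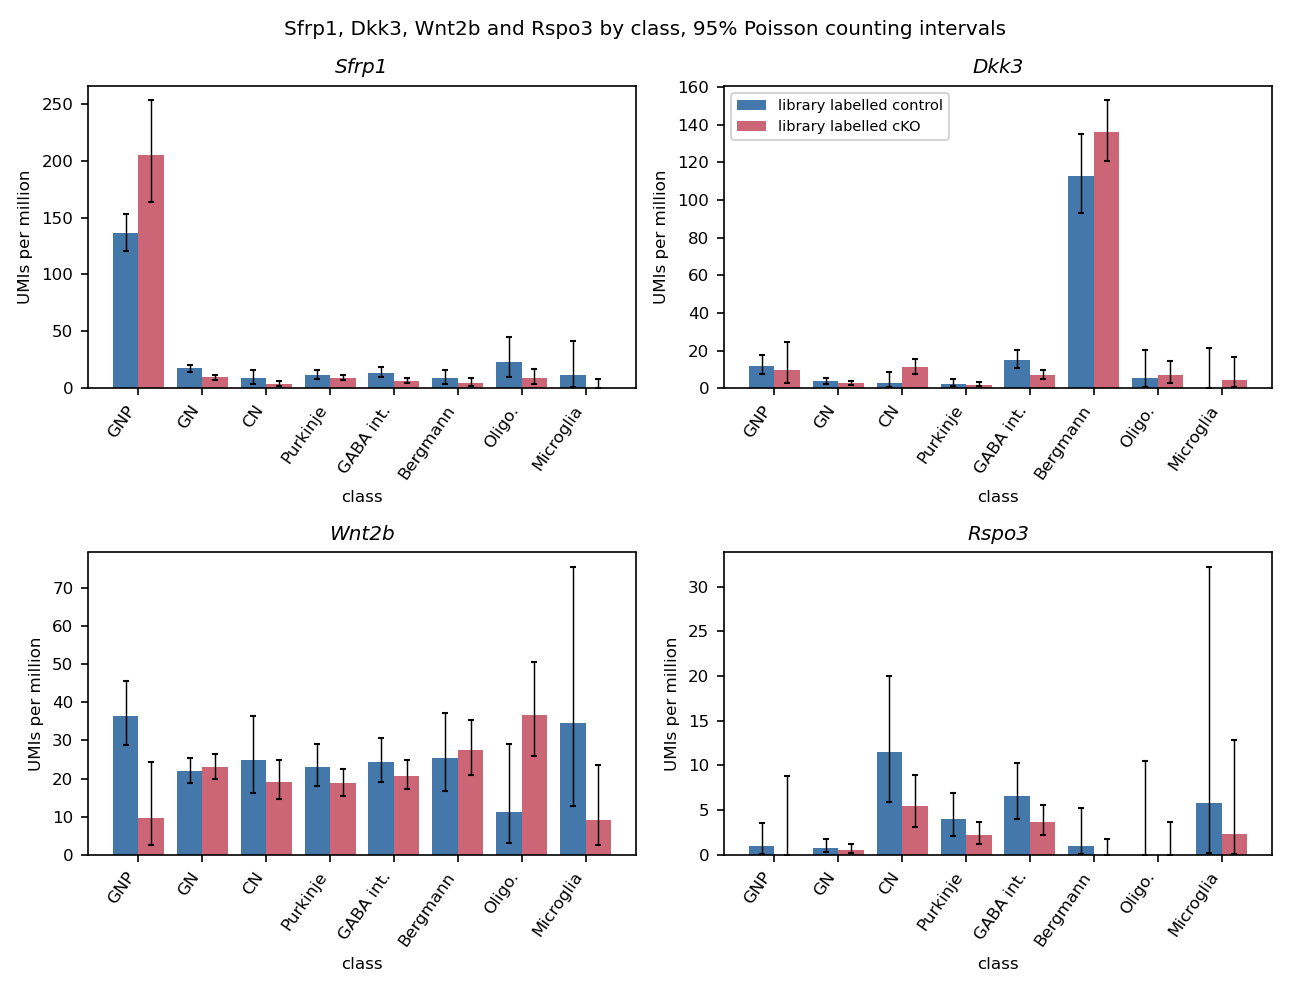
Level in CPM (vertical axes, from 0) of Sfrp1, Dkk3, Wnt2b and Rspo3 in 8 classes, with control in blue, the cKO-labelled library in red and 95% Poisson intervals. Sfrp1 was higher in the cKO-labelled library in GNP-like nuclei (136 and 205 CPM) and lower in GN-like and GABAergic interneuron-like nuclei, and Wnt2b differed in opposite directions in GNP-like and oligodendrocyte lineage-like nuclei.

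The rest of the pathway was read from a list of 62 genes for secretion, co-receptors, other inhibitors, intracellular steps, planar polarity and targets. Over the whole libraries 60 of them could be compared, and 4 were lower and 4 higher, beside 5.51% and 4.57% of all genes. Lower were Ror2, a receptor of Wnt5a (28.8 and 18.2 CPM, ratio 0.631, 0.561 to 0.710), the glypican Gpc4 (25.8 and 15.2 CPM, ratio 0.590), the secreted antagonist and guidance protein Draxin (93.3 and 50.5 CPM, ratio 0.541) and the feedback inhibitor Nkd1 (50.2 and 25.3 CPM, ratio 0.504). Higher were Tnfrsf19 (14.5 and 22.5 CPM, ratio 1.56), the formin Daam2 (8.47 and 13.5 CPM, ratio 1.59), Myc (29 and 68 UMIs, ratio 1.60) and Sost (3 and 17 UMIs, ratio 3.86, 1.12 to 20.6). Weighted by the control class shares the ratios were 0.906 for Ror2, 0.759 for Gpc4, 0.624 for Draxin, 0.682 for Nkd1, 1.28 for Tnfrsf19, 1.51 for Daam2, 1.41 for Myc and 3.02 for Sost.

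In the granule lineage 54 pathway genes could be compared, and 10 were lower and 2 higher, beside 10.0% and 3.62% of all genes, with a median log2 ratio of -0.16 against -0.09 for all genes. Of 54 compared within GN-like nuclei, 1 was lower (Nkd1) and 2 were higher (Lgr5 and Myc), beside 3.77% and 2.75% of all genes. Of 47 compared within GNP-like nuclei, 7 were lower and 8 higher, beside 7.64% and 6.09% of all genes. Those lower were Wls, Lrp5, Ror1, Gpc4, Draxin, Celsr1 and Nkd1. Those higher were Porcn, Ptk7, Lgr5, Rnf43, Kremen1, Apc2, Lef1 and Celsr2. Lower over the lineage were the Wnt carrier Wls (10.2 and 6.10 CPM), Gpc4 (34.6 and 12.8 CPM) and Draxin (136 and 69.0 CPM). So were the co-receptors Lrp5 (9.84 and 2.07 CPM) and Ror2 (35.9 and 17.5 CPM) and the polarity cadherin Celsr1 (13.5 and 4.72 CPM). Also lower there were the transcription factors Tcf7l1 (16.5 and 7.14 CPM) and Tcf7l2 (20.3 and 5.64 CPM). The targets Nkd1 (74.1 and 31.0 CPM) and Sp5 (9.21 and 5.53 CPM) completed the list. The lowest ratio was that of Lrp5, 0.211 (0.120 to 0.351, 94 and 18 UMIs). Higher were Lgr5, an R-spondin receptor that is itself a target (7.64 and 18.1 CPM, ratio 2.37, 1.78 to 3.17), and Myc (8 and 20 UMIs, ratio 2.75).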

How the data were processed

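Single-nucleus RNA was measured in 2 libraries of 12 pooled cerebella each, made with a 10x 3′ kit. The authors deposited, for each library, a matrix of UMI counts per gene and barcode (32285 genes, 4857 and 6946 barcodes, 22325208 and 33726533 UMIs), produced with Cell Ranger 7.0.1 and bcl2fastq on mouse GRCm38, as the submitters' processing notes name them. The authors' own removal of ambient RNA and of a low-quality cluster was not repeated, so UMIs of free RNA remain in every class.

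Barcodes with over 25% mitochondrial UMIs (1 and 5) and those ranked highest by Scrublet in scanpy 1.11.5 (189 and 386, at 0.8% per 1000 barcodes) were removed. Nuclei were clustered in Seurat 5.3.0 (R 4.3.3) after integration of the libraries with 3000 features and a resolution of 0.8, and the genes described, the pathway list, Tox3 and Atoh1 were kept out of those features. Clusters were named from marker lists, and a cluster needed at least 3 detected markers. The naming rule was set after the clusters were seen, and cluster 3, counted as GN-like, scored highest for the markers of another class. The values of 1 class are not reported here. Classes with fewer than 50 nuclei in a library were not compared.

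Counts were summed per class and library and divided by the UMIs of that class. Poisson, Clopper-Pearson and conditional binomial intervals at 95% were computed in scipy 1.17.1. Levels and ratios used the counts as observed. The upper limit given for a count of 0 in the whole control library stands for 3 counts. No test across libraries was possible with 1 library per group. The script was tested on simulated data. All calls of the 41 genes at the 1.5-fold threshold were described, with the highest class of all restricted genes but 1. Pathway genes were named where called over the whole libraries, in the granule lineage or in GNP-like or GN-like nuclei, and not elsewhere. The genes and lists were chosen with earlier results of these data known. Gene positions and exon lengths came from GENCODE vM21, and promoters from RefSeq on GRCm38.p6, where 27 of the 41 genes had an entry.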

Additional observations from a re-analysis of the deposited data

Results flagged for a closer look

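Wnt2b, Sfrp1 and Dkk3 passed the threshold in opposite directions in different classes, and in each case the difference between classes was not tested. Wnt2b had a ratio of the cKO-labelled library over control of 0.262 in GNP-like nuclei and 3.23 in oligodendrocyte lineage-like nuclei, the latter from 4 and 37 UMIs. Sfrp1 had a ratio of 1.51 in GNP-like nuclei, 0.547 in GN-like nuclei and 0.496 in GABAergic interneuron-like nuclei. Dkk3 had a ratio of 3.83 in glutamatergic CN-like nuclei, from 3 and 32 UMIs, and 0.462 in GABAergic interneuron-like nuclei.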

How the results depend on the processing

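Of 371 recomputed ratios of the 29 called, 357 stayed within the interval first given, 11 left it and 3 turned. The ones that turned were Sfrp1 in GNP-like nuclei (0.955) and Dkk2 in glutamatergic CN-like nuclei (0, from 1 and 0 UMIs) under a direct marker gate, and Rspo3 outside the granule lineage in nuclei with a Y-linked and no Xist UMI (1.83). The interval left out 1 under every alternative for 4 ratios, those of Sfrp1 and Fzd2 in the whole libraries, Sfrp1 in the granule lineage and Rspo2 outside it. Of these, Sfrp1 in the granule lineage with doublets kept (0.684) and Fzd2 in Y-linked nuclei (0.701) fell short of the fold. None of these recomputed ratios held the class shares. At the control class shares the whole-library ratios of Sfrp1 and Fzd2 came to 1.03 and 0.910. Genes lower in the granule lineage numbered 1 with doublets kept, 2 under the direct gate, 2 after thinning nuclei to 1000 UMIs, 2 in Y-linked nuclei and 3 at a fold of 2, and genes higher there numbered 1 with doublets kept and 1 in Xist nuclei. Calls within classes were 8 lower and 6 higher in the main setting. They fell to 5 lower under the direct gate, and to 2 lower and 0 higher after thinning. They fell to 3 lower and 0 higher in Y-linked nuclei and to 1 higher in Xist nuclei. With a minimum of 50 UMIs they fell to 4 lower and 2 higher. Shares over all genes were not computed for any of these alternatives. Over the whole libraries 2 were lower at a fold of 2, and genes higher numbered 0 after thinning, in Xist nuclei and at a fold of 2, and 3 in Y-linked nuclei. The pathway list had 0 lower and 1 higher at a fold of 2. By the ratio alone, at the class shares of the cKO-labelled library, 4 genes were lower and 2 higher, against 2 and 1 at the control shares. Thinning and the higher minimum leave fewer UMIs by construction, and other causes were not tested. Leaving out cluster 3, the low-depth clusters 1 and 5, or the richest nucleus of each library was chosen after seeing the data. No paired analysis was possible because each group was 1 library, and for the same reason no library could be left out.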
